A study of Mus musculus with 2 samples.

Results

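Laminins, nidogens, perlecan, agrin, dystroglycan and the integrins build the basement membrane and anchor cells to it. Their messages were examined in ribosome-bound RNA of the mouse cerebral cortex. Members were taken by gene symbol: every laminin chain (Lama, Lamb and Lamc with a digit), every integrin subunit (Itga or Itgb with a number or letters), and Nid1, Nid2, Hspg2, Agrn and Dag1. This gave 42 of the 32531 genes listed, with 11 laminin chains, 2 nidogens, the 2 proteoglycans Hspg2 and Agrn, dystroglycan, 18 integrin alpha and 8 integrin beta subunits. The rule uses symbols and no measured value, but members were chosen with earlier results of these data known.

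The RNA came from adult Gdnf-EGFP/Rpl10a mice (line ES2243). They carry the ribosomal protein L10a with a green fluorescent tag, driven by regulatory sequences of Gdnf, so that tagged polysomes can be pulled from tissue homogenate by antibody. The study names pericytes of the cortex as its target cells. The 2 libraries, IP2 and IP1, are both untreated immunopurified samples of that 1 line and form 1 group. The labels give no sex or exact age and do not say whether the libraries came from separate animals or pools, so the spread between them may be technical. Unpurified cortex was not analysed here, and values are levels in the purified RNA, not enrichments.

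Basement membranes are thin sheets of matrix under endothelium, around pericytes and smooth muscle, and at the end feet of astrocytes. A laminin is a trimer of 1 alpha, 1 beta and 1 gamma chain that polymerises into a network. Nidogens bridge this network to type IV collagen, the heparan sulfate proteoglycans perlecan and agrin bind to it, and cells hold on to it through dystroglycan and through integrins, which are pairs of an alpha and a beta subunit.

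IP2 held 72732502 and IP1 65200231 reads counted in genes. Levels are given as CPM, the count of a gene scaled to library size by these totals. CPM are not scaled to message length, so ratios are taken between libraries and not between genes. Where genes are called scarce, low or highest, that ranks their reads and not their molecules. A count of 0 allows up to 3 counts, or 0.0412 CPM in IP2 and 0.046 CPM in IP1. Ratios are IP2 over IP1 on library sizes scaled by the trimmed mean of M values (TMM), and their 95% exact intervals cover counting error only. No condition differs between the libraries, so a ratio is a difference between 2 samples of 1 group. All 10 mural markers checked reached 10 CPM in both libraries, with summed levels of 6337 CPM in IP2 and 6495 CPM in IP1. Rgs5 alone held 4061 CPM of that sum in IP2 and 4841 CPM in IP1. The median log2 ratio of the 10 mural markers, IP2 over IP1, was 0.62. The 10 endothelial markers checked summed to 76.3 CPM in IP2 and 74.8 CPM in IP1. Markers of neurons were also abundant, summing to 13085 CPM in IP2 and 15155 CPM in IP1. Those of oligodendrocyte precursors summed to 3087 and 2511 CPM, of astrocytes to 2553 and 1450 CPM (IP2 and IP1). Those of fibroblasts summed to 2979 and 2135 CPM, of oligodendrocytes to 2223 and 2062 CPM (IP2 and IP1). A single gene held most of 3 of these sums. It was Snap25 for neurons (10795 CPM in IP2 and 12770 CPM in IP1). It was Slc1a2 for astrocytes (2028 and 1158 CPM) and Apod for fibroblasts (2446 and 1712 CPM). The levels below may thus come from several cell types, and in bulk RNA fewer cells of a type and less RNA per cell cannot be told apart.

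Messages of laminin alpha, beta and gamma chains, nidogen, perlecan, agrin, dystroglycan and several integrin pairs were present, and those with a mean of at least 10 CPM were all higher in IP2 than in IP1. At least 10 CPM in both libraries was reached by 18 of the 42 members, against 28.3% of all genes listed and 47% of genes with a count. These were 6 laminin chains, Nid1, Hspg2, Agrn, Dag1 and 8 integrins. Of the other members, 9 were under 1 CPM in both libraries, and Itgax was the single one with no count in either. All members together took 0.140% of gene counts in IP2 (exact 95% interval 0.140 to 0.141%) and 0.0838% in IP1 (0.0831 to 0.0845%).

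**Figure D1:**
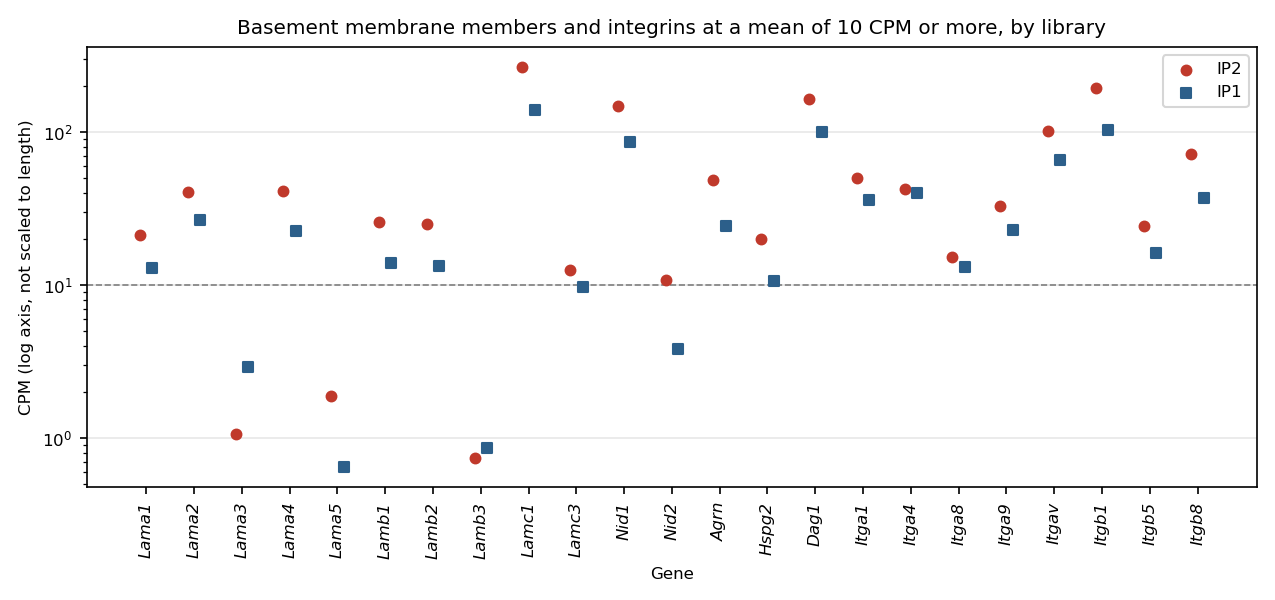
Level of laminin chains, nidogens, proteoglycans, dystroglycan and the integrins with a mean of at least 10 CPM, in IP2 (red circles) and IP1 (blue squares), on a log axis in CPM with a dashed line at 10 CPM. The IP2 point lies above the IP1 point for every gene shown except Lama3 and Lamb3.

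Among the laminin alpha chains, Lama4, the chain that lacks the usual amino-terminal arm and is typical of vessel walls, had 41.2 CPM in IP2 and 22.5 CPM in IP1, from 3000 and 1469 counts. The ratio was 1.90 (1.78 to 2.02). Lama2, the chain of laminin-211 whose loss causes a muscular dystrophy, had 40.9 CPM in IP2 and 26.5 CPM in IP1 (ratio 1.60, 1.51 to 1.70). Lama1, the alpha chain of laminin-111, had 21.4 CPM in IP2 and 12.9 CPM in IP1 (ratio 1.72, 1.58 to 1.88). These chains lie on chromosome 10 (Lama4 at 38965515 to 39110188, Lama2 at 26981285 to 27617191) and chromosome 17 (Lama1 at 67697127 to 67822645) of GRCm38, the assembly also called mm10. All were higher in IP2 by counts far above counting error.

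The other alpha chains were scarce. Lama5, a chain made by endothelium and many epithelia, had 136 counts in IP2 and 42 in IP1, or 1.87 and 0.644 CPM, with a ratio of 3.01 (2.12 to 4.36). Lama3, an epithelial chain of laminin-332, went the other way, with 77 counts in IP2 and 190 in IP1, or 1.06 and 2.91 CPM, and was 2.65-fold lower in IP2 (2.03 to 3.50). It was the sole member outside the integrins called higher in IP1.

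Both widely expressed beta chains were higher in IP2, by like ratios. Lamb1 (chromosome 12, 31265146 to 31329644) had 26.1 CPM in IP2 and 14.1 CPM in IP1 (ratio 1.92, 1.78 to 2.08). Lamb2 (chromosome 9, 108479847 to 108490530) had 25.1 CPM in IP2 and 13.3 CPM in IP1 (ratio 1.97, 1.81 to 2.13). The intervals of the ratios overlap. Lamb3, the beta chain of laminin-332, had 54 counts in IP2 and 56 in IP1, a ratio of 0.897 whose interval (0.606 to 1.33) includes 1.

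Lamc1 (chromosome 1, 153218922 to 153332786) encodes the gamma chain shared by most laminins and carries the nidogen-binding site. It had 268 CPM in IP2 and 140.1 CPM in IP1, from 19477 and 9136 counts, a mean of 204 ± 90.3 CPM (SD, n = 2), and a ratio of 1.98 (1.93 to 2.03). Lamc3 had 12.5 CPM in IP2 and 9.79 CPM in IP1, a smaller ratio of 1.33 (1.20 to 1.47).

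The chains with most reads in each class took similar shares in both libraries, while scarcer chains differed more. Of alpha chain reads, 38.7% in IP2 and 34.4% in IP1 were Lama4, 38.4% in IP2 and 40.5% in IP1 were Lama2, and 20.1% in IP2 and 19.7% in IP1 were Lama1. The exact 95% intervals for Lama4 (37.7 to 39.8% in IP2, 33.0 to 35.8% in IP1) do not overlap, and those for Lama1 do. Lamb1 took 50.2% of beta chain reads in IP2 and 49.9% in IP1, with overlapping intervals (48.6 to 51.8% and 47.6 to 52.2%). Lamc1 took 93.9% of gamma chain reads in IP2 and 92.2% in IP1. The exact intervals of Lamc1 do not overlap between libraries, and neither do those of Lamc3. Lama3 took 0.994% of alpha chain reads in IP2 (0.786 to 1.24%) and 4.45% in IP1 (3.85 to 5.11%), and Lamb3 1.43% of beta chain reads in IP2 (1.08 to 1.86%) and 3.05% in IP1 (2.31 to 3.94%). These are shares of reads, and without message lengths they do not give shares of molecules.

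**Figure D2:**
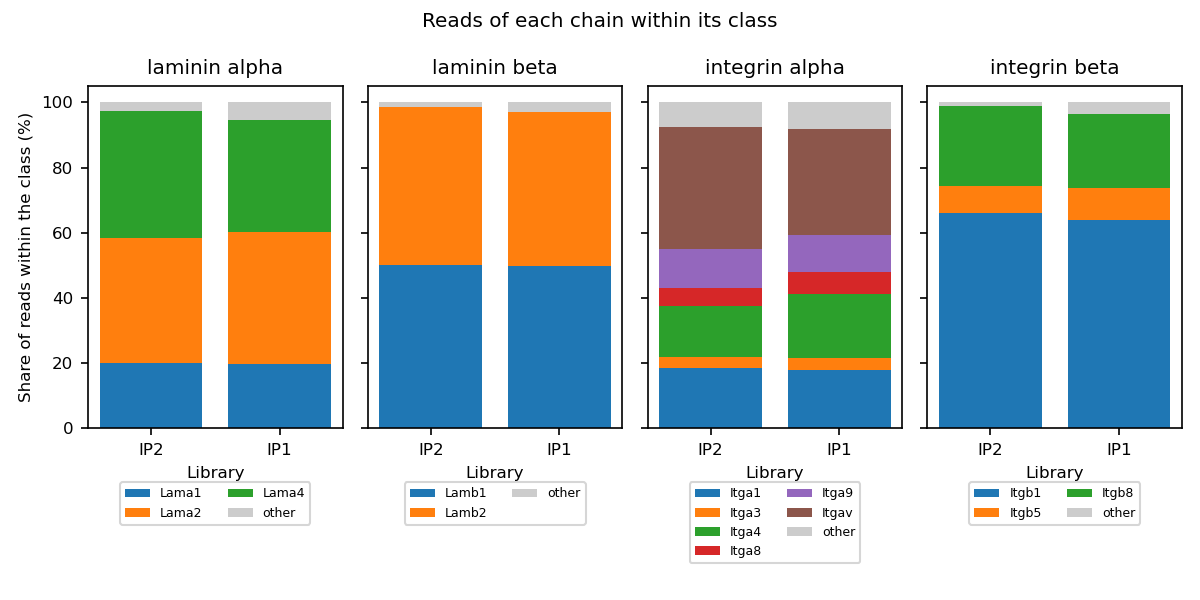
Share of reads, in percent, that each chain took within its class (laminin alpha and beta; integrin alpha and beta) in IP2 and IP1. Chains with a mean share under 3% are summed as other, and Itgb1 fills 66.2% of the integrin beta bar in IP2 and 63.8% in IP1.

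The linkers and proteoglycans followed the laminins. Nid1 (chromosome 13, 13437602 to 13512275), the nidogen with most reads, had 149 CPM in IP2 and 86.6 CPM in IP1, a mean of 118 ± 44.4 CPM (SD, n = 2; ratio 1.79, 1.73 to 1.85). Nid2 had 10.9 CPM in IP2 and 3.83 CPM in IP1, a ratio of 2.94 (2.55 to 3.41), and its share of nidogen reads was 6.79% in IP2 and 4.24% in IP1. Hspg2 (chromosome 4, 137468751 to 137570630), the perlecan gene, had 19.9 CPM in IP2 and 10.6 CPM in IP1 (ratio 1.96, 1.79 to 2.15). Agrn (chromosome 4, 156165290 to 156197533), which encodes agrin, a proteoglycan of synapses and of brain vessels, had 48.6 CPM in IP2 and 24.5 CPM in IP1 (ratio 2.06, 1.94 to 2.18). Dag1 (chromosome 9, 108204861 to 108263977), whose product dystroglycan binds laminin, perlecan and agrin through its sugar chains, had 166 CPM in IP2 and 101 CPM in IP1 (ratio 1.71, 1.66 to 1.76). All of them were higher in IP2.

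Of the beta integrins, 3 reached 10 CPM in both libraries. Itgb1 (chromosome 8, 128685654 to 128733579), the partner of most laminin-binding and collagen-binding alpha subunits, had 194 CPM in IP2 and 104 CPM in IP1, a mean of 149 ± 63.7 CPM (SD, n = 2; ratio 1.93, 1.88 to 1.99). Itgb8 (chromosome 12, 119162803 to 119238276), which pairs with the alpha v subunit in a receptor that activates latent transforming growth factor beta, had 72.0 CPM in IP2 and 37.2 CPM in IP1 (ratio 2.01, 1.91 to 2.11). Itgb5, another partner of alpha v and a vitronectin receptor subunit, had 24.3 CPM in IP2 and 16.2 CPM in IP1 (ratio 1.56, 1.45 to 1.69). Itgb1 took 66.2% of beta subunit reads in IP2 and 63.8% in IP1, and Itgb8 24.5% in IP2 and 22.8% in IP1.

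Alpha subunits at this level were Itgav, Itga1, Itga4, Itga9 and Itga8. Itgav, the alpha v subunit of vitronectin and fibronectin receptors, had 102 CPM in IP2 and 66.4 CPM in IP1 (ratio 1.60, 1.54 to 1.66). Itga1, a collagen and laminin receptor subunit, had 50.3 CPM in IP2 and 36.1 CPM in IP1 (ratio 1.44, 1.37 to 1.52). Itga9, which binds tenascin C among others, had 32.8 CPM in IP2 and 23.0 CPM in IP1 (ratio 1.48, 1.39 to 1.58). The differences were smaller for Itga8, the nephronectin receptor subunit, with 15.2 CPM in IP2 and 13.1 CPM in IP1 (ratio 1.20, 1.10 to 1.32), and for Itga4, which binds fibronectin and the vascular adhesion molecule VCAM1, with 42.5 CPM in IP2 and 40.2 CPM in IP1, a mean of 41.4 ± 1.62 CPM (SD, n = 2; ratio 1.10, 1.04 to 1.16). Itga4 therefore took a smaller share of alpha subunit reads in IP2 (15.6%) than in IP1 (19.9%).

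Laminin-binding alpha subunits other than Itga1 were low. Itga3 had 9.17 CPM in IP2 and 7.32 CPM in IP1 (ratio 1.30, 1.15 to 1.47). Itga6, abundant in endothelium, had 159 counts in IP2 and 152 in IP1, with a ratio of 0.973 (0.774 to 1.22). Itga7, the laminin receptor subunit of muscle, had 339 counts in IP2 and 113 in IP1, or 4.66 and 1.73 CPM, and a ratio of 2.79 (2.25 to 3.48). The fibronectin receptor gene Itga5 had 338 counts in IP2 and 149 in IP1 (ratio 2.11, 1.73 to 2.58). Of the collagen receptors, Itga10 had 146 counts in IP2 and 55 in IP1 (ratio 2.47, 1.80 to 3.43), and Itga11 had 325 in IP2 and 280 in IP1 (ratio 1.08, 0.917 to 1.27). Itga2 had 4 counts in IP2 and 18 in IP1. Itgb4, the partner of the alpha 6 subunit in hemidesmosomes, had 152 counts in IP2 and 187 in IP1 (ratio 0.756, 0.606 to 0.942), and the epithelial Itgb6 had 0 in IP2 and 2 in IP1. Itga1, Itga4, Itga7 and Itgb4 overlap the span of Pelo, Cerkl, Mettl7b and Galk1 in the RefSeq annotation, and reads matching both genes of a pair were not assigned.

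Integrins of blood cells and microglia were at low levels, with no more than 2.13 CPM for any of them. Their summed level over 9 genes was 3.24 CPM in IP2 and 7.39 CPM in IP1. The myeloid and microglial subunit Itgam had 91 counts in IP2 and 120 in IP1, and its partner Itgb2 had 1 in IP2 and 18 in IP1. Itgal, which with Itgb2 forms the lymphocyte receptor for intercellular adhesion molecules, had 1 count in IP2 and 21 in IP1. Itgae and Itgb7, the subunits of an E-cadherin receptor of lymphocytes, had 4 and 7 counts in IP2 and 61 and 30 in IP1. The platelet fibrinogen receptor genes Itga2b and Itgb3 had 50 and 67 counts in IP2 and 84 and 139 in IP1, Itgad had 15 in IP2 and 9 in IP1, and Itgax had none. Of these, 5 were called higher in IP1 (Itgae, Itgal, Itgb2, Itgb3 and Itgb7), with Itgae 16.4-fold lower in IP2 (6.09 to 62.1) and Itgb2 19.4-fold lower, with a wide interval of 3.06 to 806. Itgb3 averaged between 1 and 10 CPM, where 10.7% of all genes tested were called higher in IP1, and the other 4 averaged under 1 CPM, where 38% were. The 8 microglial markers checked summed to 35.6 CPM in IP2 and 31.4 CPM in IP1, none of them at 0.

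The difference between libraries was tested for every gene with 10 or more counts in total, which left out Itgax and Itgb6. A two-sided exact binomial test with Benjamini-Hochberg adjustment over 17306 genes compared the reads of the 2 libraries. Calls required that the adjusted p was below 0.05 and that the ratio was 2 or more. Of the 40 members tested, 8 were called higher in IP2, where 7.25% of all genes tested were, and 7 were called higher in IP1, where 10.3% were. Among those called higher in IP2 were Agrn, Nid2, Lama5, Itgb8, Itga5, Itga7 and Itga10. Called higher in IP1 were Lama3, Itga2 and the 5 blood cell integrins named above. Lamc1, Lamb2, Hspg2 and Itgb1 fell just short of the ratio of 2, at 1.93 to 1.98, and Itgb8 and Agrn just passed it at 2.01 and 2.06. Scaled by total counts, Agrn and Itgb8 lost the call, and with an assumed coefficient of variation of 0.2 between libraries the calls towards IP2 were 4 (with Nid2, Lama5 and Itga7 among them).

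How often a gene is called depended on its level. At a mean of at least 10 CPM, 2 of 19 members were called higher in IP2, where 1.24% of 9656 genes were, and 0 of 19 in IP1, where 0.435% were. On the adjusted p alone, all 19 were on the IP2 side, where 44.4% of these genes were, and 0 on the IP1 side, where 37.1% were. That test holds counting error only: with an assumed coefficient of variation between libraries of 0.1, a test chosen after seeing the data, 16 of the 19 passed on the IP2 side, where 10.4% of these genes did (Itga4, Itga8 and Lamc3 did not), and with 0.2 none of the 19 passed, where 0.58% did. On the IP1 side 4.83% and 0.166% of these genes passed in those tests, and 0 members. The common coefficient measured was 0.275, over 15429 genes left by a filter on low counts. That set includes genes under 10 CPM, and no coefficient was measured for genes at 10 CPM or more alone. By counting error with a ratio of at least 1.5 in addition, 14 were on the IP2 side, where 7.97% of these genes were, and 0 on the IP1 side, where 3.4% were. Their median log2 ratio was 0.78, and that of all genes at this level 0.03. The central 95% of those genes spanned log2 ratios of -0.63 to 0.85, and 8 members lay above it (Lama4, Lamb1, Lamb2, Lamc1, Hspg2, Agrn, Itgb1 and Itgb8). Between 1 and 10 CPM, 6 of 13 members were called higher in IP2 and 2 in IP1, where 9.37% and 10.7% of genes were. Under 1 CPM, 0 of 8 were called higher in IP2, where 21.9% were, and 5 in IP1, where 38% were. No member under 10 CPM lay outside the central 95% of genes of its own level, Itgae, Itgal and Itgb2 included.

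**Figure D3:**
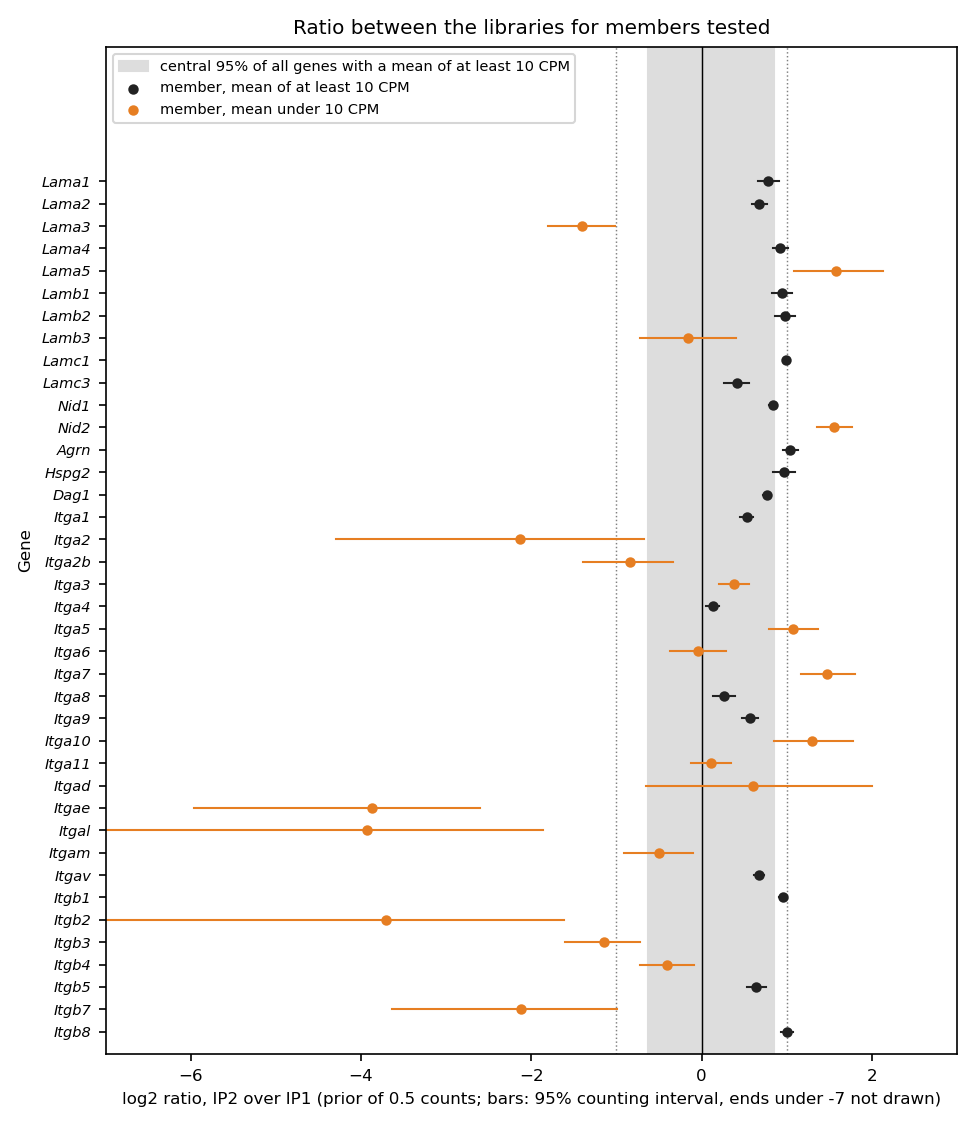
Log2 ratio of IP2 over IP1 for members tested, with 95% counting intervals as bars, for members with a mean of at least 10 CPM (black) and under 10 CPM (orange). The grey band is the central 95% of all genes that average 10 CPM or more (-0.63 to 0.85), and 8 black points lie to its right.

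**Figure D4:**
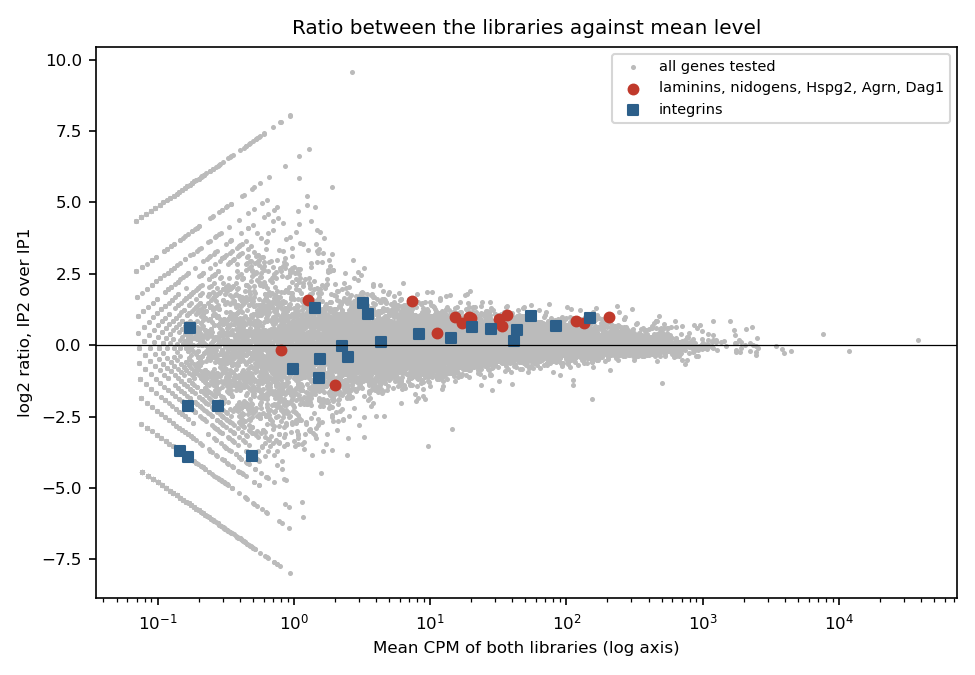
Log2 ratio of IP2 over IP1 against mean CPM (log axis) for all 17306 genes tested (grey), integrins (blue squares) and the other members (red circles). The grey cloud widens at low level, where the integrins with the lowest ratios lie within it, and all members at 10 CPM or more lie above 0.

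Genes for other basement membrane proteins were also mostly higher in IP2, and those for the intracellular partners of the receptors had ratios near 1. Medians of log2 ratios were taken over the genes of each list that averaged 10 CPM or more, beside 0.03 for all genes at that level. The median was 0.93 for the 11 laminin, nidogen, proteoglycan and dystroglycan genes and 0.60 for the 8 integrins. Basement membrane partners had a median of 0.90 over 8 genes, and the list named other laminin and agrin receptors 0.62 over 9. That list is broader than its name, with Cd47, Cd151, Cd44, Ddr1 and Ddr2 among its genes. Integrin adhesion machinery had 0.09 over 25 genes, and the dystrophin complex with the enzymes that glycosylate dystroglycan 0.17 over 18. No test of the difference between these groups was made.

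Of 25 basement membrane partners, 6 were called higher in IP2, where 7.25% of all genes tested were, and 1 in IP1, where 10.3% were. The type IV collagen genes Col4a1 (32.1 CPM in IP2, 15.2 CPM in IP1) and Col4a2 (41.6 CPM in IP2, 25.02 CPM in IP1) had ratios of 2.19 and 1.72. They are neighbours that overlap in the annotation. Sparc, a collagen-binding matrix protein gene, had 588 CPM in IP2 and 343 CPM in IP1. Mfge8, which encodes a ligand of alpha v integrins, had 92.8 CPM in IP2 and 46.3 CPM in IP1 and was called. Vwa1, a matrix protein gene that encodes a binding partner of perlecan, had 28.0 CPM in IP2 and 19.3 CPM in IP1. The other calls towards IP2 were Col15a1 (935 counts in IP2, 422 in IP1), Smoc1 (1363 in IP2, 500 in IP1), Fbln2 (461 in IP2, 210 in IP1) and Frem2 (235 in IP2, 27 in IP1), and Hmcn1 was the call towards IP1, with 23 counts in IP2 and 79 in IP1.

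Of 28 genes of the adhesion machinery inside the cell, 1 was called higher in IP2 and 0 in IP1, beside the same 7.25% and 10.3% of all genes. That gene was Fermt1, a kindlin of epithelia, with 152 counts in IP2 and 51 in IP1. The highest of this list differed by less than 1.5-fold: the tensin gene Tns1 had 726 CPM in IP2 and 677 CPM in IP1, Lims1, which encodes the adaptor PINCH1, 557 CPM in IP2 and 599 CPM in IP1, Tns3 451 CPM in IP2 and 385 CPM in IP1, and the kindlin gene Fermt2 365 CPM in IP2 and 395 CPM in IP1. On the adjusted p alone the list split into 14 genes on the IP2 side and 7 on the IP1 side, where 37.6% and 38.2% of all genes were. Integrin-linked kinase (Ilk), with 135 CPM in IP2 and 165 CPM in IP1, and talin (Tln1), with 114 CPM in IP2 and 119 CPM in IP1, had ratios under 1.

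The dystrophin complex, which ties dystroglycan to actin, gave 1 call in each direction among 24 genes tested of 25, beside 7.25% of all genes towards IP2 and 10.3% towards IP1. Dmd, the dystrophin gene, had 578 CPM in IP2 and 749.5 CPM in IP1, Utrn, its relative utrophin, 317 CPM in IP2 and 301 CPM in IP1, Dtna 172 CPM in IP2 and 199 CPM in IP1, and Large, a glycosyltransferase gene for dystroglycan, 94.9 CPM in IP2 and 82.4 CPM in IP1. The calls were Pomt1, a protein O-mannosyltransferase gene, with 597 counts in IP2 and 168 in IP1, and Sgca, a sarcoglycan gene of striated muscle, with 6 in IP2 and 40 in IP1. Dmd had a ratio of 0.801 and its membrane partner Dag1 1.71. Both lay within the central 95% of all genes averaging 10 CPM or more. Of the 13 genes listed as other laminin and agrin receptors, 3 were called higher in IP2 and 0 in IP1, beside 7.25% and 10.3% of all genes. They were Lrp4, the agrin receptor of the neuromuscular junction (31.3 CPM in IP2, 15.5 CPM in IP1), Sdc4 (61.0 CPM in IP2, 26.8 CPM in IP1) and Sdc1 (120 counts in IP2, 28 in IP1), both syndecan genes. Sdc3 (296 CPM in IP2, 191 CPM in IP1), Sdc2 (145 CPM in IP2, 136 CPM in IP1), Cd47 (80.7 CPM in IP2, 62.6 CPM in IP1) and Cd151 (50.8 CPM in IP2, 49.9 CPM in IP1) were the other highest of that list.

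**Figure D5:**
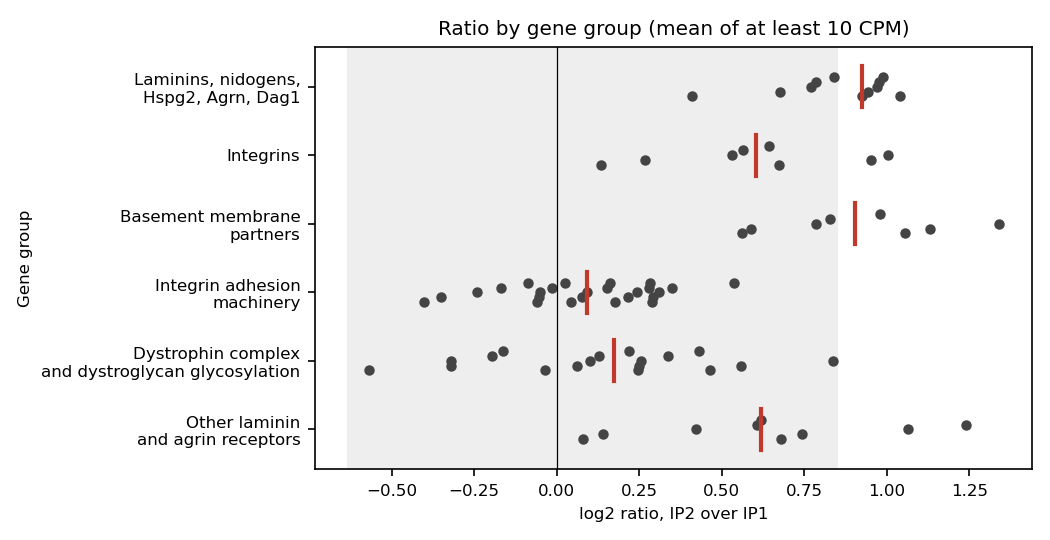
Log2 ratio of IP2 over IP1 for each gene with a mean of at least 10 CPM (dots) in 6 groups, with the group median as a red bar and the central 95% of all genes at that level in grey. The medians are 0.93 and 0.60 for the matrix members and the integrins, and 0.09 and 0.17 for the adhesion machinery and the dystrophin complex.

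Marker genes of several cell types differed between the libraries as well. On the adjusted p alone, where 37.6% of all genes tested were on the IP2 side and 38.2% on the IP1 side, all 8 astrocyte markers were on the IP2 side, with 3 called (Aqp4, Slc1a3 and Fgfr3). All 8 fibroblast markers were on the IP2 side too, with summed levels of 2979 CPM in IP2 and 2135 CPM in IP1 and 0 called. Of the 10 mural markers, 7 were on the IP2 side and 3 on the IP1 side, and Notch3 was called higher in IP2. Other lists went both ways, with 5 markers of oligodendrocyte precursors on the IP2 side and 2 on the IP1 side (Pdgfra and Gpr17 were called higher in IP2), the same 5 and 2 for oligodendrocytes, and 3 and 4 for neurons. Arterial smooth muscle markers (summed 613 CPM in IP2, 673 CPM in IP1) had 4 on the IP2 side and 1 on the IP1 side. Endothelial markers had 5 and 2, with Pecam1 called higher in IP2 and Tek in IP1. Microglial markers had 3 and 1, with C1qa called higher in IP2 and C1qb in IP1. None of the markers in the 9 lists was at 0 in both libraries, and Cldn5 was at 0 in IP2 with 5 counts in IP1. Their part in the difference between libraries was not tested.

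The 250 bases upstream of the annotated start are shown for Itgb1 and Itgb8. They were taken from the members above the central 95% of all genes averaging 10 CPM or more. Of these, they alone have a single start in the RefSeq promoter table and a window wholly outside the annotated span of the gene. The windows are read 5′ to 3′ on the gene's strand of GRCm38.p6, for Itgb1 (chr8:128685404-128685653, plus strand) and Itgb8 (chr12:119238277-119238526, minus strand). Capitals mark matches, on either strand, to the GC box GGGCGG, the CCAAT box CCAAT, the TATA box TATAAA or the AP-1 site TGANTCA.
Itgb1: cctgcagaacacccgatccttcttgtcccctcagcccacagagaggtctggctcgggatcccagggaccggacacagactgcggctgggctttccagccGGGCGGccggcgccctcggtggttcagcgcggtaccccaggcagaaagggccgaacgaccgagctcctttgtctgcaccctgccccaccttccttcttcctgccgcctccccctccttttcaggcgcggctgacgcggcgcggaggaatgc
Itgb8: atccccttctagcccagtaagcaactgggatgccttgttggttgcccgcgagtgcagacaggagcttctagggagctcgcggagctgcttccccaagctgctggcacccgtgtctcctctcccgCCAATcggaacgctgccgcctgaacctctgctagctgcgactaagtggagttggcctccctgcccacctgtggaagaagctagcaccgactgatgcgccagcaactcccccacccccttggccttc

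The Itgb1 window held 1 GC box and that of Itgb8 1 CCAAT box. Promoters of members on chromosome 18, where Lama3 lies, were left out, a limit not set for the promoters of all genes. With that limit, 27 of the 42 members had 32 promoters in the table. A GC box was in 46.9% of these, against 32.7% of all 32851 promoters, a CCAAT box in 21.9%, against 33.8%, a TATA box in 0 of 32, against 12.4%, and an AP-1 site in 1 of 32, against 6.75%. Some genes have more than 1 start, some windows reach into the annotated span of their own gene (those of Hspg2, Lamb1 and Lamb2 among them), and a match of letters is not a bound site.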

How the data were processed

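Ribosome-bound RNA from cortex of the Gdnf-EGFP/Rpl10a line was sequenced in 2 libraries. Reads were aligned with STAR 2.0.0e to mm10 and counted with HTSeq, per the submitters' processing notes; for the annotation, strand setting and read filters nothing is given in the sources used here. The deposited files hold raw counts per gene symbol. Summary lines for unassigned reads and a row named unknown (0 reads in IP2, 1 in IP1) were left out; reads in genes were 57.7% of listed reads in IP2 and 58.1% in IP1. Reads aligned to several places (31.5% in IP2, 31.2% in IP1) and reads matching several genes (1.60% in IP2, 1.64% in IP1) were not assigned, so overlapping or duplicated genes are undercounted and a count of 0 sets no limit there. Without a known strand setting, antisense reads cannot be told apart.

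CPM used the total of gene counts. Ratios used TMM sizes from edgeR 4.0.16, with a prior of 0.5 counts in log2 values. The exact binomial test (scipy 1.17.1) holds counting error only. It was tested on simulated data drawn with counting error alone, so that check does not cover variation between libraries. The common coefficient of variation between libraries was 0.275 over 15429 genes. DESeq2 1.42.0 gave alternative size factors (R 4.3.3, Python 3.11.15). Message lengths were not used here, so the planned levels per length, and ratios by length, were not computed. Coordinates, names and promoters came from RefSeq tables of GRCm38.p6, which held all 42 members by symbol. Named were the laminins, Nid1, Nid2, Hspg2, Agrn, Dag1 and all integrins, and of 4 pathway lists the 4 highest and the called genes. Ilk and Tln1 were added after their values were seen. For 1 member no value of its own is reported here. Members and lists were chosen with earlier results of these data known. PCR copies were not marked, so reads are not independent molecules.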

Additional observations from a re-analysis of the deposited data

How the results depend on the processing

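No paired analysis was possible because the libraries form 1 group. Scaling by DESeq2 size factors, by total counts, without a filter on low counts or with an assumed coefficient of variation of 0.1 kept the members' counts of calls within 1.5 times, as did all alternatives for their calls towards IP1. The 8 members called higher in IP2 became 4 with an assumed coefficient of variation of 0.2 (with Nid2, Lama5 and Itga7 among them), 20 with a ratio of at least 1.5 and 26 on the adjusted p alone. The 19 members averaging 10 CPM or more that were higher in IP2 on the adjusted p alone became 16 with a coefficient of 0.1 and 0 with 0.2, a comparison chosen after seeing the data. Agrn and Itgb8 also lost their calls when scaled by total counts (log2 ratios 0.99 and 0.95). Total counts moved the median of all genes by -0.05.

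Basement membrane partners higher in IP2 numbered 2 with a coefficient of 0.2, 16 with a ratio of 1.5 and 20 on the adjusted p alone; those higher in IP1 numbered 3 with a ratio of 1.5 and 3 on the adjusted p alone. Adhesion machinery gave 14 towards IP2 and 7 towards IP1 on the adjusted p alone. The dystrophin complex gave 3 towards IP2 with a ratio of 1.5, and 15 towards IP2 and 6 towards IP1 on the adjusted p alone. Other receptors towards IP2 numbered 7 with a ratio of 1.5 and 11 on the adjusted p alone. The members' median log2 ratio of 0.62 stayed between 0.57 and 0.78, and members at 10 CPM in both libraries numbered between 12 and 20 over the level and scaling alternatives. Each library alone gave 20 in IP2 and 18 in IP1. No direction reversed. With 2 libraries of 1 group, the ratios have no replicate check. Levels per exonic or coding length were not run, since no message lengths were used here.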
